A study of Mus musculus with 9 samples.

Results

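The cytosolic ribosomal protein genes encode the proteins of the large and small subunits of the ribosome that translates messenger RNA in the cytoplasm. They were taken by name, as Rpl or Rps followed by a number or as Rplp0, Rplp1, Rplp2 and Rpsa, without names marked as pseudogenes, and with at least 1 RPKM in at least 3 of the 9 mice. RPKM is the number of reads on a gene, scaled to the length of its exons and to all reads counted in the mouse. Of 38621 genes in the deposited table, 88 matched by name and 85 by name and level, 50 of the large and 35 of the small subunit.

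Brain RNA came from male C57BL/6 mice, with 3 separate mice in each of 3 groups. The ICH mice received 30 μl of their own blood in the brain as a model of intracerebral hemorrhage (ICH), and the feb mice were first given febuxostat, an inhibitor of xanthine oxidase, by gavage every day for 5 days (50 mg/kg), before the same blood injection. The sham mice had no blood injected, and they are called untreated in the sample labels while the methods of the study describe saline. The mice's age, the dissected brain region and the time between injection and sampling are not given for these libraries in the sources used here. In bulk tissue, fewer cells of a type and less RNA per cell cannot be told apart.

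The ribosome is among the most abundant structures of a cell, and its proteins are made in nearly equal numbers from genes scattered over the genome. Their messenger RNAs typically begin with a run of pyrimidines, the terminal oligopyrimidine (TOP) tract, through which the kinase mTOR and the protein Larp1 regulate their translation together. In brain, neurons also translate messenger RNA in dendrites and axons, and several free ribosomal proteins act outside the ribosome, for example in the response of p53 to disturbed ribosome assembly.

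The name rule caught 77 of the 80 canonical ribosomal proteins. Fau and Rack1, whose products are also part of the ribosome, carry other names and are described apart. A further 5 genes were paralogs of canonical genes, namely Rpl7l1, Rpl22l1, Rpl36al, Rps4l and Rps27l, and 3 were other copies, namely Rpl6l, Rps3a2 and Rps3a3. GENCODE release M21 lists 81 of the 85 as protein coding and Rpl6l, Rps3a2, Rps3a3 and Rps4l as processed pseudogenes, so for these 4 the label of ribosomal protein gene is not met by the annotation. Just inside the level rule lay Rps3a3 with a mean of 1.95 RPKM and Rps27l with 2.82 RPKM. Just outside lay Rps12l1, at 0.574 to 1.34 RPKM and above 1 in a single sham mouse, and Rpl3l, at 0.184 to 0.528 RPKM.

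Start windows of 30 bases, 15 on each side of the transcription start, were available for 61 of the 85 genes with 72 starts in all (RefSeq, GRCm38.p6). A run of at least 7 C or T on the sense strand lay in 34 of the 72 windows, or 47.2%, against 18.6% of the 32851 windows of all genes. The windows below show the run in genes with the values described later and in Rps6, and Rpl11 is shown as a gene without one. Bases before the start are not part of the messenger RNA, so a run in a window need not be a TOP tract. In Rps27l the run begins at position -11, with the start as 1, and is 9 bases long, so it ends before the start. The longest run at the other start of Rps27l, not shown, was 4 bases. Capitals mark the longest run of C and T where it reached 5 bases.
Rpl28, chr7:4792950-4792979, plus strand: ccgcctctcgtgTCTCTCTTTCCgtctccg
Rpl7a, chr2:26910792-26910821, plus strand: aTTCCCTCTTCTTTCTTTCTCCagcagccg
Rpl13a, chr7:45128731-45128760, minus strand: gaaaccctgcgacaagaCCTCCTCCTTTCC
Rplp2, chr7:141447636-141447665, plus strand: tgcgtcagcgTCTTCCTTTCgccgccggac
Rps27, chr3:90213634-90213663, minus strand: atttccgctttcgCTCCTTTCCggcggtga
Rps27l, chr9:66946071-66946100, plus strand: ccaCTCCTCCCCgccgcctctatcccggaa
Rps6, chr4:86857353-86857382, minus strand: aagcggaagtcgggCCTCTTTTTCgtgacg
Rpl11, chr4:136053379-136053408, minus strand: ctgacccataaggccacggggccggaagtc

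Of other short motifs, searched on either strand over 300 bases around each start, CCGGAAG was found at 36.1% of the 72 starts against 8.86% of all starts. AAGATGGC was found at 11.1% against 2.75%, and TATAAA at 9.72% against 13.6%. The last letters of CCGGAAG can overlap the first of AAGATGGC, and a match is a description of the sequence only.

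Between 23065757 and 29538009 reads per mouse were counted on genes, and 100% of the RPKM values were within 0.1 read of a whole number of reads. The 85 genes held 30 to 18136 reads per gene and mouse. Neuronal markers (Snap25, Rbfox3, Syt1, Tubb3) summed to 418 to 490 RPKM in every mouse, while the 4 choroid plexus markers ranged from 361 to 1024 RPKM in sham and ICH mice and from 29.4 to 86.4 RPKM in feb mice. The similar neuronal sums do not show that each marker was level. Their log2 fold changes in ICH against sham ran from -0.43 to 0.32. Oligodendrocyte markers summed to 429 to 797 RPKM over the mice. Genes under 200 bases took 4.18 to 4.53% of the reads in sham, 3.53 to 3.61% in ICH and 3.71 to 4.46% in feb mice.

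Together the 85 genes took about the same share of the reads in every group. Sham mice gave them 1.12, 1.08 and 1.19% of their reads, ICH mice 1.13, 1.27 and 1.09%, and feb mice 1.24, 1.001 and 1.20%. The means (± SD, n = 3) were 1.13% ± 0.0538 for sham, 1.16% ± 0.0938 for ICH and 1.15% ± 0.127 for feb. The differences between the groups were smaller than the spread within the feb group, whose second mouse was the lowest of the 9.

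The spread lay between single mice and ran across most of the genes. Of the 85 genes, 43 had their highest RPKM of the 9 mice in ICH replicate 2, and 52 had their lowest in feb replicate 2. The first principal component of the 85 genes held 59.7% of their variance, with scores of 2.02 in ICH replicate 2 and -2.34 in feb replicate 2 and of -1.14 to 0.86 in the other mice. ICH replicate 2 also had the highest summed RPKM of the 4 microglia markers, 39.8 against 19.6 to 31.8 in the other mice, and of the 3 markers of dividing cells (Mki67, Top2a, Cdk1), 15.4 against 2.72 to 6.66. The same mouse had the highest sum of the endothelium markers, 34.6 against 20.5 to 32.3. Its sum of the oligodendrocyte markers was the lowest, 429 against 438 to 797. In feb replicate 2, genes under 200 bases held 4.46% of the reads against 3.71 and 3.74% in the other feb mice, and the 7SK RNA gene Rn7sk held 0.237% against 0.159 and 0.175%. The part of these values in the levels of the ribosomal protein genes was not tested. Because these 2 libraries stood apart, the comparisons are given with and without them. They were picked by the levels of the 85 genes themselves, so leaving them out was bound to narrow the spread of these genes. The shares without them are descriptions and are not evenly comparable with those of all genes.

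**Figure D1:**
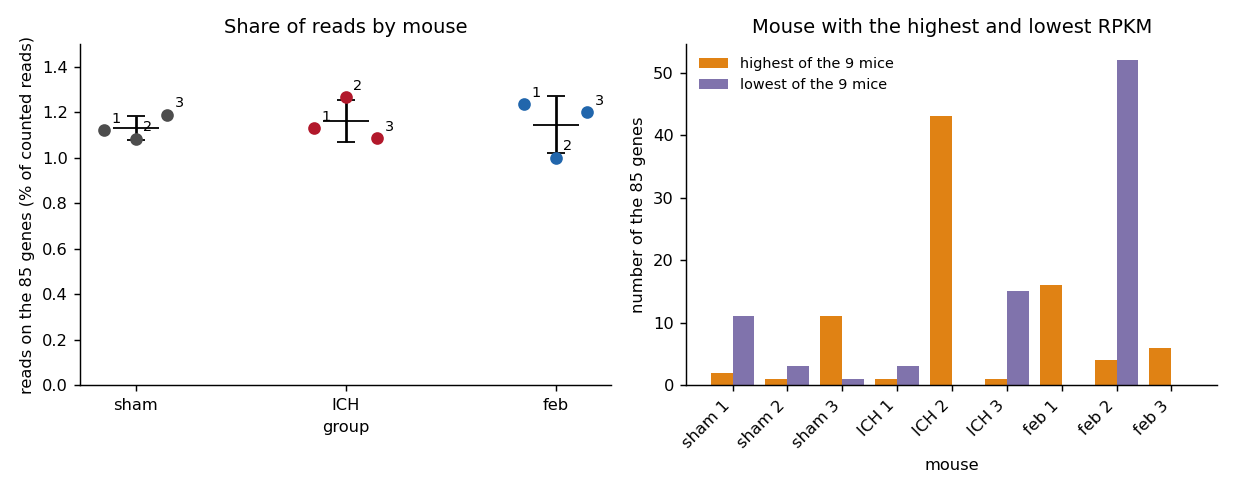
Left, reads on the 85 genes as a percentage of all counted reads, 1 point per mouse with its replicate number, with the group mean and SD (n = 3). Right, the number of genes with their highest (orange) or lowest (purple) RPKM in each mouse. ICH replicate 2 was highest for 43 genes and feb replicate 2 lowest for 52.

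The ribosomal protein genes varied between mice about as much as genes with a mean of at least 10 RPKM, a set not matched to them in level. The SD of log2(RPKM + 0.1) over the 9 mice had a median of 0.15 over the 85 genes, of 0.17 over the 5063 genes with a mean of at least 10 RPKM and of 0.31 over all 29025 genes tested. Per length, the highest means were those of Rpl19 (549 RPKM) and Rplp1 (421 RPKM) of the large and Rps23 (429 RPKM) of the small subunit, and 27 genes were at or above 100 RPKM. The lowest were Rps3a3, Rps27l and Rpl22l1, the last with 2.96 RPKM, and 10 genes were under 10 RPKM. The 10 genes with the most reads held 37.9% of the reads of the 85.

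This order depends on the exon length with which the values were scaled. The deposited exon length had a median of 1659 bases and ranged from 404 to 6270 bases, while the principal transcript of GENCODE, found for 81 genes, had a median of 681 bases. The ratio of exon length to transcript length had a median of 2.31 and reached 9.80 for Rps15a, with 6270 exon bases and a transcript of 640 bases. Differences between mice in the same gene are not touched by this length.

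The comparison of ICH with sham mice asks which transcripts differ after the hemorrhage. Between these groups the ribosomal protein genes differed little. Their median log2 fold change was 0.08, the same as the 0.08 of all 29025 genes tested, and it ranged from -0.46 for Rpl6l to 0.57 for Rps27l. None of the 85 met an unadjusted p under 0.05 with a fold change over 2, which 2.53% of all genes did, and no 95% interval reached that size in either direction, from -0.98 to 0.99. In limma with Benjamini-Hochberg adjustment none passed an adjusted p of 0.05, the lowest being 0.347, against 0.0241% of all genes. At an unadjusted p under 0.05, 7 were higher (among them Rpl7a, Rpl11, Rpl13, Rpl28, Rpl29 and Rps27l) and 3 lower (Rpl13a, Rpl23a and Rplp2), or 8.24% and 3.53%, beside 7.88% and 4.42% of all genes. In direction alone, 60 of the 85 lay above 0, or 70.6% beside 61.1% of all genes.

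The split between higher and lower depended on the scaling and on the mice. Equal medians in every mouse shifted the median of all genes tested by -0.11 on the log2 scale and gave 1 gene higher and 9 lower, or 1.18% and 10.6% beside 4.0% and 7.07% of all genes. Voom on the recovered reads gave 3 higher and 7 lower, or 3.53% and 8.24% beside 6.31% and 6.61%. Quantile normalization gave 11 and 1, or 12.9% and 1.18% beside 5.45% and 6.17%. Centring on the mean of the 85 genes gave 10 and 7, or 11.8% and 8.24% beside 4.41% and 4.19%. Centring makes the mean of the 85 genes equal in every mouse. By construction it leaves no mean difference between groups and removes the spread that these genes share. Without ICH replicate 2, 1 gene was higher and 5 were lower, or 1.18% and 5.88% beside 5.14% and 2.63% of all genes. Without feb replicate 2, which only shared the estimate of the spread, 19 were higher and 3 lower, or 22.4% and 3.53% beside 9.13% and 5.04%. With both left out, 12 were higher and 7 lower, or 14.1% and 8.24% beside 6.07% and 3.25%, and the median was 0.02 beside 0.08 over all genes. Centring and the choice of these 2 mice both used the levels of the 85 genes. Their shares are therefore not evenly comparable with those of all genes.

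Without any model, 20 genes had all 3 ICH mice above all 3 sham mice, or 23.5% beside 13.2% of all genes, and 2 (Rpl23a and Rpl31) had all below, or 2.35% beside 6.22%. Among the 20 were Rpl4, Rpl7a, Rpl7l1, Rpl11, Rpl13, Rpl27a, Rpl28, Rpl29, Rpl30, Rpl35a, Rpl38, Rps4x, Rps13, Rps18, Rps21, Rps23, Rps27, Rps27a and Rps27l. With equal medians the counts were 11 and 4, or 12.9% and 4.71% beside 6.78% and 10.1% of all genes. An exact permutation test of 3 against 3 mice cannot go below 0.1.

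Rps27l, a paralog of Rps27 known as a transcriptional target of p53, had the largest positive fold change. It had 2.41, 2.39 and 2.44 RPKM in sham, 4.10, 4.19 and 2.76 RPKM in ICH and 2.41, 1.94 and 2.71 RPKM in feb mice. All ICH mice lay above all others, although the third ICH mouse was close to the third feb mouse, at a mean depth of 60 reads. In limma the log2 fold change was 0.57 (SE 0.18, adjusted p = 0.347) for ICH against sham and -0.61 (SE 0.18, adjusted p = 0.316) for feb against ICH. The unadjusted p stayed under 0.05 in 20 of 22 alternatives in the first comparison and in 21 of 22 in the second, with adjusted p of at least 0.229 and 0.224. In the same order of mice, the 3 markers of dividing cells summed to 6.66, 15.4 and 3.60 RPKM in ICH, against 2.72 to 4.02 RPKM in sham and feb mice, and the 4 microglia markers to 31.8, 39.8 and 25.5 RPKM, against 19.6 to 28.0 RPKM. Their part in the level of Rps27l was not tested.

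Its parent gene did not show this order. Rps27, a small subunit protein with a zinc finger, had 64.1, 87.4 and 78.1 RPKM in sham, 99.4, 93.2 and 89.9 RPKM in ICH and 108, 64.8 and 113 RPKM in feb mice. The ICH mice lay above the sham mice, and the feb mice held both the highest values and a value in the sham range. The log2 fold change of Rps27 was 0.31 (SE 0.21, adjusted p = 0.530 in limma) for ICH against sham and -0.03 (SE 0.21, adjusted p = 0.978) for feb against ICH.

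Rpl29 and Rpl28, both of the large subunit, also lay highest in the ICH mice, as did Rpl30, whose ICH mice had 17.4, 17.4 and 17.5 RPKM beside at most 17.1 RPKM in sham and 17.3 RPKM in feb mice. Rpl29 had 42.7, 47.7 and 44.0 RPKM in sham, 53.6, 63.7 and 52.2 RPKM in ICH and 47.7, 41.7 and 51.0 RPKM in feb mice. Rpl28 had 71.1, 70.5 and 73.6 RPKM in sham, 81.9, 92.7 and 83.2 RPKM in ICH and 76.3, 63.5 and 76.8 RPKM in feb mice. In Rpl29 and Rpl28 no ICH mouse overlapped the other groups, and sham and feb mice did overlap. The log2 fold changes of Rpl29 were 0.33 (SE 0.11, adjusted p = 0.347 in limma) against sham and -0.27 (SE 0.11, adjusted p = 0.408) for feb against ICH. Those of Rpl28 were 0.26 (SE 0.09, adjusted p = 0.366) and -0.25 (SE 0.09, adjusted p = 0.387). Rpl29 kept an unadjusted p under 0.05 in 21 and 15 of the 22 alternatives and Rpl28 in 16 and 16.

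In Rpl7a, Rpl13 and Rpl11, ICH replicates 1 and 3 lay closer to sham than replicate 2. Rpl7a, a large subunit protein, had 87.3, 89.1 and 90.7 RPKM in sham, 105, 129 and 104 RPKM in ICH and 109, 78.9 and 107 RPKM in feb mice. The second ICH mouse was the highest and the second feb mouse the lowest of the 9. The log2 fold change of ICH against sham was 0.33 (SE 0.14, adjusted p = 0.391 in limma) for Rpl7a, and an unadjusted p under 0.05 was kept in 14 of the 22 alternatives.

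Rpl13 and Rpl11 were also highest in ICH replicate 2 and lowest in feb replicate 2. Rpl13, a large subunit protein picked out after its values were seen, had 56.3, 61.8 and 59.3 RPKM in sham, 68.9, 82.1 and 66.2 RPKM in ICH and 67.3, 52.2 and 66.5 RPKM in feb mice. Rpl11, which binds the p53 regulator Mdm2 together with Rpl5 and the 5S ribosomal RNA when ribosome assembly is disturbed, had 32.7, 35.0 and 34.7 RPKM in sham, 41.9, 48.0 and 40.0 RPKM in ICH and 42.9, 28.4 and 40.3 RPKM in feb mice. The sham and ICH mice did not overlap in either gene. Their log2 fold changes were 0.29 for Rpl13 (SE 0.12, adjusted p = 0.397 in limma) and 0.34 for Rpl11 (SE 0.15, adjusted p = 0.405), and an unadjusted p under 0.05 was kept in 13 and 7 of the 22 alternatives. Rpl5, the partner of Rpl11, had 104 ± 4.57 RPKM in sham and 110 ± 10.8 RPKM in ICH mice (SD, n = 3), and its log2 fold change was 0.08 (SE 0.11, adjusted p = 0.765).

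Of the genes that were lower in ICH mice, Rpl13a encodes a large subunit protein that also takes part in silencing the translation of inflammatory messenger RNAs. It had 185, 151 and 198 RPKM in sham, 136, 157 and 134 RPKM in ICH and 161, 160 and 151 RPKM in feb mice. The second mouse of each of these first 2 groups overlapped the other group, with a log2 fold change of -0.32 (SE 0.11, adjusted p = 0.366 in limma). Without sham replicate 2 its adjusted p was 0.0960, the lowest of any of the 85 genes in any alternative. Rpl13a shares exon bases on the same strand with Flt3l, whose reads came to 98.1% of those of Rpl13a, so how reads were assigned between the pair bears on both values.

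Rpl23a and Rplp2 were the other genes below sham at an unadjusted p under 0.05. Rpl23a, a protein at the exit of the nascent chain tunnel, had 170, 138 and 173 RPKM in sham, 130, 131 and 127 RPKM in ICH and 143, 184 and 138 RPKM in feb mice. Rplp2, of the acidic stalk that recruits elongation factors, had 62.4, 58.3 and 66.7 RPKM in sham, 51.3, 59.6 and 47.9 RPKM in ICH and 53.8, 58.2 and 56.5 RPKM in feb mice. The ICH mice lay below all others in Rpl23a, and overlapped the sham mice in Rplp2. The log2 fold change was -0.30 (SE 0.13, adjusted p = 0.399 in limma) for Rpl23a and -0.24 (SE 0.09, adjusted p = 0.386) for Rplp2. The reads of Tlcd1, which overlaps exons of Rpl23a, came to 79.5% of those of Rpl23a. Rpl26, another large subunit protein near the tunnel exit, had a log2 fold change of -0.23 (SE 0.10, adjusted p = 0.408).

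**Figure D2:**
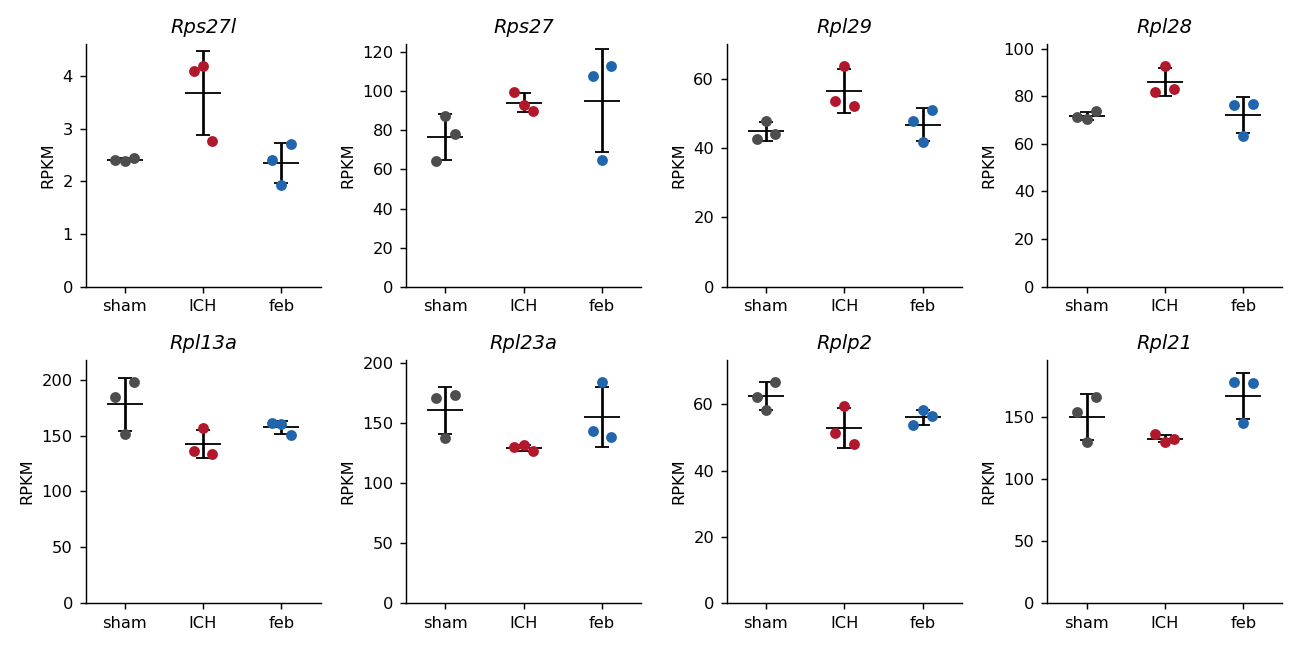
RPKM of 8 ribosomal protein genes in each of the 9 mice, with the group mean and SD (n = 3) and axes from 0. Rps27l, Rpl29 and Rpl28 lay higher in all ICH mice than in all sham and feb mice, and Rpl23a and Rpl21 lay lower in all ICH mice than in all feb mice.

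The comparison of feb with ICH mice asks which transcripts febuxostat altered after the hemorrhage, and it shares the ICH mice with the comparison above. The median log2 fold change of the 85 genes was -0.07, beside -0.01 over all genes tested, and 29 genes, or 34.1%, lay above 0 beside 47.8% of all genes. None met an unadjusted p under 0.05 with a fold change over 2, beside 2.43% of all genes, and none passed an adjusted p of 0.05 in limma with Benjamini-Hochberg adjustment (lowest 0.316), against 0.00689% of all genes. At an unadjusted p under 0.05, 1 gene was higher (Rpl21) and 3 were lower (Rpl28, Rpl29 and Rps27l), or 1.18% and 3.53% beside 4.9% and 6.16% of all genes. The groups did not overlap for 4 genes that were higher in feb mice (Rpl21, Rpl23a, Rpl26 and Rpl31) and 5 that were lower (Rpl28, Rpl29, Rpl30, Rps2 and Rps27l), or 4.71% and 5.88% beside 7.04% and 10.1%. With equal medians these counts were 1 and 1, or 1.18% each beside 7.55% and 8.1% of all genes, and with centring on the mean of the 85 genes 12 and 13, or 14.1% and 15.3% beside 7.41% and 5.82%. The direction of the median rested on the mice that stood apart, at 0.04 without feb replicate 2, -0.01 without ICH replicate 2 and 0.10 without both. Without both, 7 genes were higher and 0 lower, or 8.24% and 0% beside 4.31% and 4.87% of all genes. Centring and the choice of these mice used the levels of the 85 genes. Their shares are therefore not evenly comparable with those of all genes.

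Rpl21, a large subunit protein, was the gene above ICH at an unadjusted p under 0.05. It had 154, 129 and 166 RPKM in sham, 136, 130 and 132 RPKM in ICH and 178, 145 and 178 RPKM in feb mice. Every feb mouse lay above every ICH mouse, while the sham mice spanned both. The log2 fold change was 0.33 (SE 0.12, adjusted p = 0.378 in limma), and an unadjusted p under 0.05 was kept in 19 of the 22 alternatives. Among the other genes above ICH were, in order of p, Rpl6l with 0.47 (SE 0.23, adjusted p = 0.479), Rpl23a with 0.25 (SE 0.13, adjusted p = 0.497) and Rpl31, also of the tunnel exit, with 0.14 (SE 0.07, adjusted p = 0.510). Among those below ICH were Rps4x, an X-linked small subunit protein, with -0.35 (SE 0.16, adjusted p = 0.468) and Rps2, at the entry of the messenger RNA channel, with -0.28 (SE 0.13, adjusted p = 0.482).

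The feb and sham groups differed in the fewest genes. The comparison shares its mice with the comparisons above. The median log2 fold change was 0.01 beside 0.05 over all genes tested, and the values ran from -0.17 (Rpl13a) to 0.28 (Rps27). At an unadjusted p under 0.05, 0 of the 85 genes were higher and 0 lower, beside 5.63% and 2.9% of all genes, and the lowest adjusted p was 0.665 in limma, against 0.00345% of all genes passing 0.05. With a fold change over 2 in addition, 2.2% of all genes were counted and 0 of the 85. Voom also gave 0 in both directions at an unadjusted p under 0.05. Rplp2 was the one gene whose feb mice all lay below the sham mice, or 1.18% beside 4.9% of all genes, and 0 genes had all feb mice above, beside 7.78%. The count of 0 genes higher at an unadjusted p under 0.05 turned on feb replicate 2. Without it 15 were higher, or 17.6% beside 8.82% of all genes. Without ICH replicate 2 as well there were 21, or 24.7% beside 8.78%. These mice were picked by the levels of the 85 genes, so the shares are not evenly comparable with those of all genes. Without sham replicate 2, 3 genes were lower, or 3.53% beside 4.29%.

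Among the differences of feb from sham were those of Rps27 with 0.28 (SE 0.21, adjusted p = 0.704), Rpl21 with 0.16 (SE 0.12, adjusted p = 0.704), Rpl35a with 0.19 (SE 0.14, adjusted p = 0.714), Rpl14 with 0.17 (SE 0.13, adjusted p = 0.731) and Rpl8 with 0.15 (SE 0.12, adjusted p = 0.736) above sham in limma. Below sham were Rplp2 with -0.15 (SE 0.09, adjusted p = 0.665), Rpl13a with -0.17 (SE 0.11, adjusted p = 0.682) and Rps3 with -0.10 (SE 0.09, adjusted p = 0.740). The median half-width of a 95% interval was 0.27 on the log2 scale in each comparison, so smaller differences in a single gene were mostly not detectable with 3 mice per group. A p that misses the threshold does not show that the groups had equal levels.

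**Figure D3:**
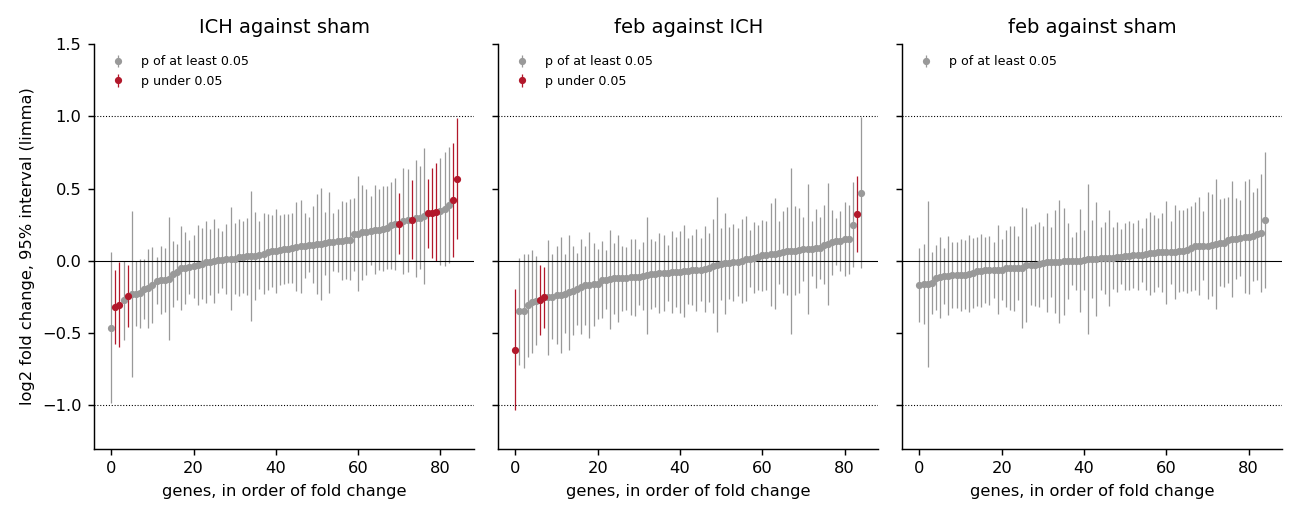
Log2 fold change of each of the 85 genes with its 95% interval (limma), in order of fold change, for ICH against sham, feb against ICH and feb against sham, with dotted lines at a 2-fold change. The points in red have an unadjusted p under 0.05, 10 in the first panel, 4 in the second and 0 in the third.

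Large and small subunit genes had nearly the same values. In ICH against sham the median log2 fold change was 0.08 over the 50 large subunit and 0.07 over the 35 small subunit genes. At an unadjusted p under 0.05, 5 of the large subunit were higher and 3 lower, or 10% and 6%. Of the small subunit 2 were higher and 0 lower, or 5.71% and 0%, beside 7.88% and 4.42% of all genes. In feb against ICH the medians were -0.07 and -0.08, and in feb against sham 0.02 and 0.00. Genes with and without a run of at least 7 pyrimidines in a start window, which includes bases before the start, were likewise close. They lay at 0.11 (33 genes) and 0.10 (28 genes) in ICH against sham and at -0.07 and -0.10 in feb against ICH. Across the 85 genes the fold changes were weakly related to exon length, with a Spearman coefficient of 0.12 in ICH against sham and -0.21 in feb against ICH, and to the mean RPKM, with -0.20 and 0.21. These are descriptions across genes that share their libraries.

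**Figure D4:**
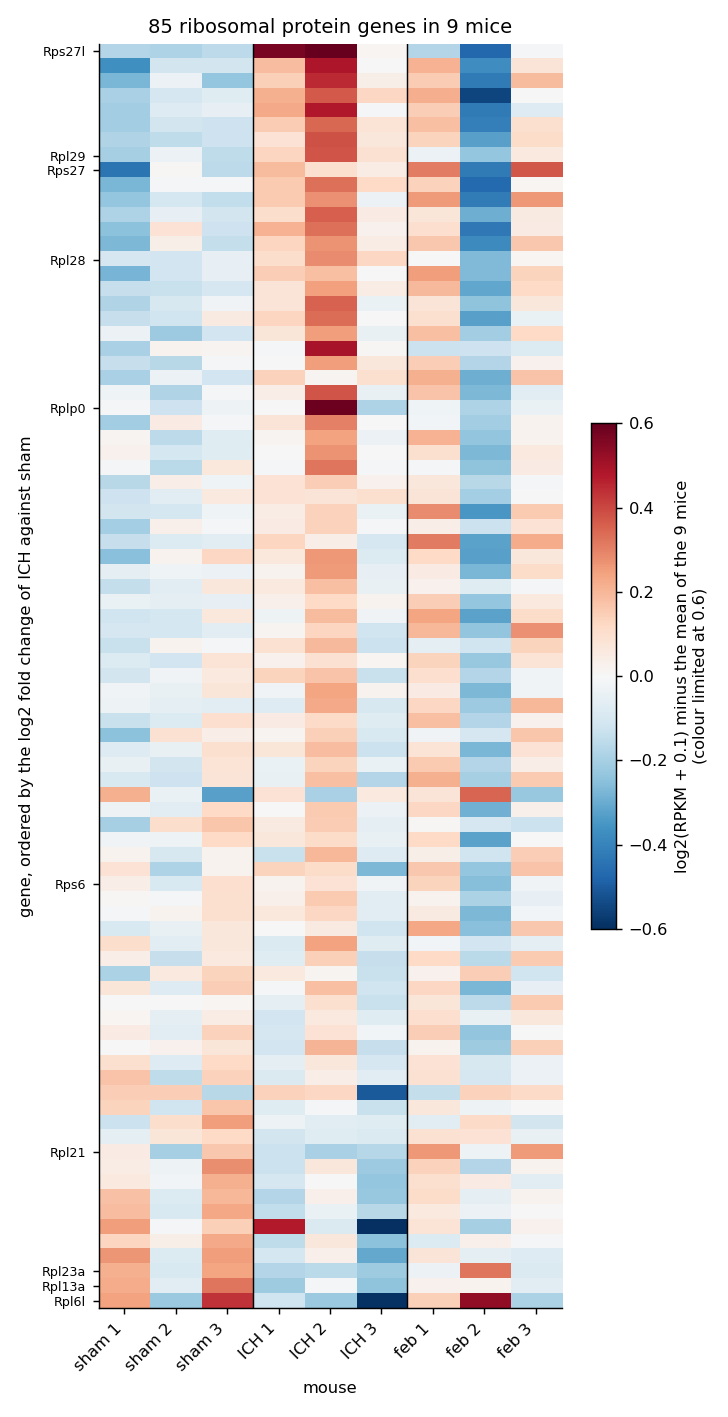
Log2(RPKM + 0.1) of the 85 genes in the 9 mice, minus each gene's mean over the mice, with colour limited at 0.6 in either direction and genes in order of the fold change of ICH against sham, of which 10 are named. ICH replicate 2 is red and feb replicate 2 blue in most genes, while Rpl6l and Rpl23a run the other way in feb replicate 2.

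Among the other stalk proteins, Rplp0 had 36.8, 33.9 and 36.2 RPKM in sham, 37.0, 55.6 and 32.4 RPKM in ICH and 36.2, 32.5 and 35.9 RPKM in feb mice. A single mouse, ICH replicate 2, stood above the rest, and the log2 fold change of ICH against sham was 0.19 (SE 0.17, adjusted p = 0.649 in limma). Rplp1 had 430 ± 11.0 RPKM in sham, 417 ± 57.9 RPKM in ICH and 417 ± 51.4 RPKM in feb mice (SD, n = 3). In ICH against sham the log2 fold change was -0.05 (SE 0.13) for Rplp1 and -0.24 (SE 0.09) for Rplp2. Of the stalk genes Rplp0 alone lay above 0, and its ICH replicates 1 and 3 lay around the sham values. Whether the stalk genes share a direction therefore cannot be read from these values.

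Several ribosomal proteins with further roles were nearly level. Rps6, the substrate of the S6 kinases used as a readout of mTOR activity, had 121 ± 8.07, 122 ± 4.49 and 116 ± 15.4 RPKM in sham, ICH and feb mice (SD, n = 3). Rpsa, the laminin receptor protein of the small subunit, had 130 ± 8.10, 130 ± 17.1 and 122 ± 4.09 RPKM in the same order. Rps19, mutated in Diamond-Blackfan anemia, had 13.6 ± 0.900, 14.1 ± 1.54 and 13.4 ± 1.84 RPKM. The fold changes of these genes in ICH against sham lay at 0.01 for Rps6 (SE 0.10), -0.01 for Rpsa (SE 0.10) and 0.05 for Rps19 (SE 0.12). Rpl41, the smallest ribosomal protein, had 81.9 ± 7.40, 93.1 ± 10.4 and 81.2 ± 6.81 RPKM and a log2 fold change of 0.18 (SE 0.11, adjusted p = 0.493 in limma).

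Rps27a, which is made as a fusion to ubiquitin, had 32.7, 34.9 and 35.6 RPKM in sham, 43.4, 48.3 and 40.9 RPKM in ICH and 43.6, 25.5 and 37.4 RPKM in feb mice. The sham and ICH mice did not overlap, with a log2 fold change of 0.36 (SE 0.17, adjusted p = 0.428 in limma). Fau, a fusion of a ubiquitin-like protein to the small subunit protein eS30, had 281 ± 7.55, 315 ± 23.1 and 294 ± 32.8 RPKM in sham, ICH and feb mice (SD, n = 3), and all ICH mice lay above the sham mice at 0.17 (SE 0.10, adjusted p = 0.504). Rack1, the scaffold protein of the small subunit, had 5.05 ± 0.154, 5.88 ± 0.953 and 5.06 ± 0.272 RPKM (SD, n = 3), with 0.20 (SE 0.12, adjusted p = 0.493).

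Of the 8 paralogs listed, 5 passed the level rule, and Rps27l was the only one with an unadjusted p under 0.05 in any comparison. Rpl7l1, which acts in ribosome assembly, had 15.2 ± 0.0720, 16.4 ± 0.618 and 15.7 ± 2.11 RPKM in sham, ICH and feb mice (SD, n = 3), and its parent Rpl7 had 90.1 ± 6.27, 92.1 ± 6.68 and 87.3 ± 12.7 RPKM. Rpl22l1 had 2.74 ± 0.0795, 2.99 ± 0.250 and 3.15 ± 0.716 RPKM, and Rpl22, an RNA-binding protein of the large subunit, 33.1 ± 2.62, 36.6 ± 5.02 and 32.4 ± 3.42 RPKM. Rpl36al had 40.2 ± 4.79, 37.6 ± 1.82 and 38.2 ± 2.57 RPKM, and Rpl36a 55.8 ± 0.245, 54.5 ± 4.40 and 56.8 ± 6.27 RPKM. In these pairs neither parent nor paralog had an unadjusted p under 0.05, although in Rpl7l1 all ICH mice lay above all sham mice. Rps4x had 45.9, 50.3 and 51.3 RPKM in sham, 62.1, 74.2 and 52.7 RPKM in ICH and 58.9, 39.6 and 50.3 RPKM in feb mice, with a log2 fold change of 0.34 in ICH against sham (SE 0.16, adjusted p = 0.420 in limma). Rps4l had 7.61 ± 0.939, 7.09 ± 1.69 and 7.57 ± 0.801 RPKM (SD, n = 3) and -0.12 (SE 0.19, adjusted p = 0.785).

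Reads of the copies without introns can also fit their parents. Rpl6l had 8.12, 5.86 and 9.29 RPKM in sham, 6.30, 5.87 and 4.52 RPKM in ICH and 7.57, 9.95 and 6.01 RPKM in feb mice, with a log2 fold change of -0.46 in ICH against sham (SE 0.23, adjusted p = 0.432 in limma), and Rps3a3 had 1.89 ± 0.368, 1.92 ± 0.210 and 2.06 ± 0.428 RPKM (SD, n = 3). How reads that fit several genes were counted is not given in the sources used here, so the values of these copies are uncertain. The 228 genes named as ribosomal protein pseudogenes held reads equal to 2.17% of those of the 85 genes. Of these, 183 were tested, and 2 were higher and 13 lower in ICH against sham at an unadjusted p under 0.05, or 1.09% and 7.10% beside 7.88% and 4.42% of all genes. In feb against ICH 12 were higher and 4 lower, or 6.56% and 2.19% beside 4.9% and 6.16%, and in feb against sham 10 and 3, or 5.46% and 1.64% beside 5.63% and 2.9%. Their medians were -0.10, 0.17 and 0.07, beside 0.08, -0.07 and 0.01 for the 85 genes.

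Many ribosomal protein genes overlap others. Exon bases were shared with another gene by 36 of the 85, with 25 on the same and 17 on the opposite strand. For 9 of them, as in Rpl13a and Rpl23a, the reads counted on a partner numbered over 50% of the member's reads. How many reads the overlapping genes had in common is not known from these values, and some may have been counted on both. The microRNA gene Gm27597 shares exon bases with Rpl19 on the same strand. It had a mean of 6565 reads, or 44.7% of the number on Rpl19. Small nucleolar RNA genes lie in the spans of 30 members, 58 in all, and the reads counted on each came to at most 4.24% of the number on its host. Of the 10 genes with an unadjusted p under 0.05 in ICH against sham, Rpl29, Rps27l and Rpl11 were among those that shared no bases with another gene of the annotation.

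The genes that work with the ribosome had similarly small medians. The shares of all genes that were higher and lower at an unadjusted p under 0.05, beside which the lists are given, were 7.88% and 4.42% in ICH against sham, 4.9% and 6.16% in feb against ICH and 5.63% and 2.9% in feb against sham. The TOP list held 20 genes of translation factors and other transcripts with such a tract, of which 1 was higher and 0 lower in ICH against sham at that p, or 5% and 0%, with a median of 0.00. In feb against ICH 2 were higher and 1 lower, or 10% and 5%, with a median of -0.04. Eef1a1, which delivers aminoacyl transfer RNA, had 337 ± 30.2, 386 ± 35.4 and 346 ± 62.7 RPKM in sham, ICH and feb mice (SD, n = 3), and Eef2, which moves the ribosome along, 348 ± 31.7, 312 ± 5.49 and 310 ± 15.4 RPKM. Tpt1, a growth-related TOP transcript, had 108 ± 18.0, 92.9 ± 6.96 and 94.4 ± 9.79 RPKM. The gene higher in ICH was Pabpc1, the cytoplasmic poly(A)-binding protein, at 0.48 (SE 0.18, adjusted p = 0.381 in limma), and in feb against ICH it was the lower gene at -0.41 (SE 0.18, adjusted p = 0.446). The genes higher in feb against ICH were Snhg1 and Gas5, noncoding hosts of small nucleolar RNAs, at 0.51 (SE 0.14, adjusted p = 0.291) and 0.36 (SE 0.11, adjusted p = 0.328). These genes were picked out after their values were seen.

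Among 34 genes of ribosome assembly, 2 were higher and 3 lower in ICH against sham (5.88% and 8.82%), 3 higher and 0 lower in feb against ICH (8.82% and 0%), and 2 higher and 0 lower in feb against sham (5.88% and 0%) at an unadjusted p under 0.05, with medians of 0.03, 0.04 and 0.02. Ncl, the nucleolar protein nucleolin, had 69.3, 47.3 and 64.0 RPKM in sham, 46.3, 48.3 and 46.7 RPKM in ICH and 58.9, 62.3 and 56.8 RPKM in feb mice. All feb mice lay above the ICH mice, and sham replicate 2 lay among the ICH mice. The log2 fold change was -0.33 (SE 0.13, adjusted p = 0.386 in limma) for ICH against sham and 0.33 (SE 0.13, adjusted p = 0.408) for feb against ICH. Npm1, nucleophosmin, had 84.6 ± 14.3, 71.6 ± 2.75 and 84.2 ± 8.59 RPKM in sham, ICH and feb mice (SD, n = 3), and Fbl, the methyltransferase of ribosomal RNA, 3.94 ± 0.224, 3.92 ± 0.177 and 3.70 ± 0.521 RPKM.

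Of 15 genes that control TOP messenger RNAs, 3 were higher and 1 lower in ICH against sham, or 20% and 6.67% beside 7.88% and 4.42% of all genes, with a median of 0.09, and 0 passed an unadjusted p under 0.05 in feb against ICH. By their values, seen before they were picked, the higher genes were the cap-binding factor Eif4e (0.21), the S6 kinase Rps6kb1 (0.30) and the mTOR inhibitor Tsc2 (0.22), and the lower was Mlst8 (-0.27), a subunit of the mTOR complexes. For comparison, 31 proteasome subunit genes, another abundant housekeeping complex, had 2 higher and 1 lower (6.45% and 3.23%) with a median of 0.06 in ICH against sham, and 1 higher and 0 lower (3.23% and 0%) with a median of -0.03 in feb against ICH. The 82 mitochondrial ribosomal protein genes, which serve the separate ribosome inside mitochondria, had 4 higher and 4 lower in ICH against sham, or 4.88% each, with a median of -0.02. In feb against ICH they had 5 higher and 11 lower, or 6.10% and 13.4% beside 4.9% and 6.16% of all genes, with a median of -0.06 beside -0.01. In feb against sham 0 were higher and 5 lower, or 0% and 6.10% beside 5.63% and 2.9%, with a median of -0.07 beside 0.05. No gene of the TOP, assembly, TOP control, proteasome or mitochondrial ribosomal lists passed an adjusted p of 0.05.

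**Figure D5:**
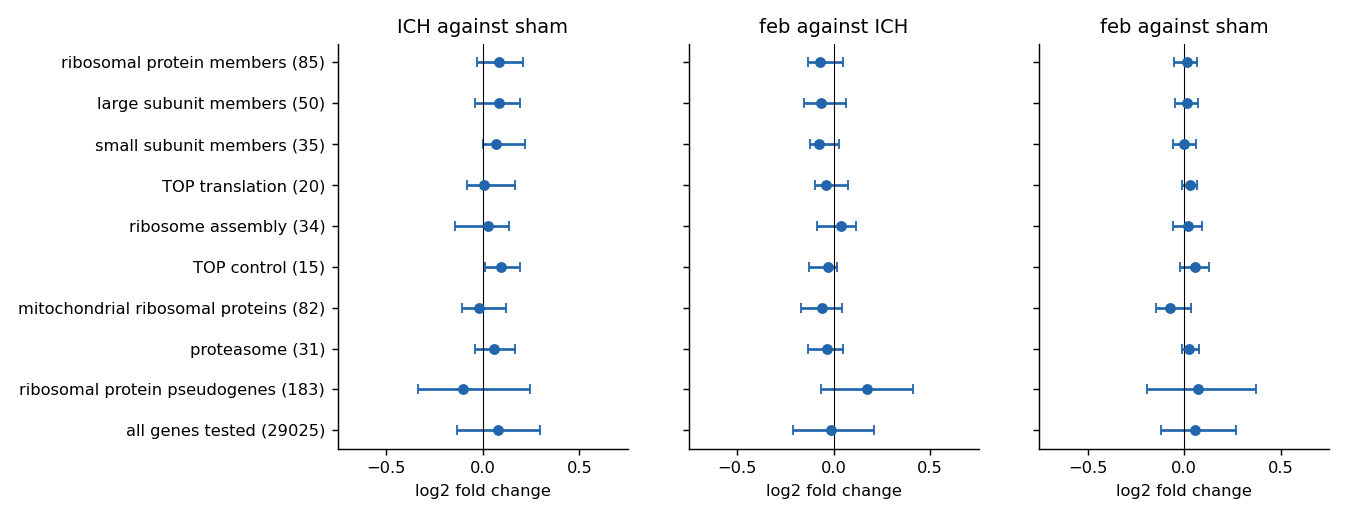
Median log2 fold change (points) and the range from the first to the third quartile (bars) of each gene list, with the number of genes tested in parentheses, for the 3 comparisons. The 85 ribosomal protein genes had medians of 0.08, -0.07 and 0.01, and all genes tested 0.08, -0.01 and 0.05.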

How the data were processed

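RNA of 9 mouse brain samples, 3 per group, was analysed from 1 table. The authors trimmed the reads (Trimmomatic 0.36), collapsed them by unique molecular identifiers, aligned them to GRCm38, counted them on exons with featureCounts (Subread 1.5.1) and tested them with edgeR 3.12.1. The deposited values are RPKM, 1 column per mouse. Which annotation release was used, whether strand was, and how reads with several possible genes were counted are not given in the sources used here. The values were tested as log2(RPKM + 0.1) with limma 3.58.1 in R 4.3.3 (all 9 samples in 1 linear model, moderated variances with a trend, no block) over 29025 genes with at least 0.1 RPKM in at least 3 samples, with two-sided p and Benjamini-Hochberg adjustment over all of them. Fold changes of low genes are understated on this scale. The model was tested on simulated data first. No count test was used, since the unit is RPKM, but whole reads were recovered and used in a voom alternative with TMM factors. The mice are separate animals, and their number limits the precision.

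The members and gene lists were chosen with earlier results of these data known. The genes named with values were the stalk genes, Rpsa, Rps6, Rps27a, Rpl5, Rpl11, Rpl13a, Rpl41, Rps19, Rpl22, the paralogs and their parents, the 3 highest and 3 lowest in level, the 5 with the lowest p per direction and comparison, and Fau, Rack1, Eef1a1, Eef2, Tpt1, Npm1, Fbl and Ncl. Genes outside this rule are named in counts only or as chosen after their values were seen. Start windows came from RefSeq and gene types from GENCODE M21, both by gene name or position on GRCm38. Overlaps were taken from the exon positions deposited with the RPKM values. Protein sequences were not used here. Results for some genes that the naming rule picked are not reported here. Python 3.11.15 with pandas 2.3.3 and numpy 2.4.6 made the tables. Of 22 alternatives, 2 were added after the values were seen. Since unadjusted p-values are used only as a threshold of 0.05, the text prints adjusted ones.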

Additional observations from a re-analysis of the deposited data

How the results depend on the processing

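None of the 85 genes passed an adjusted p of 0.05 in limma in any of the 22 alternatives, and none of the 14 calls at an unadjusted p under 0.05 changed sign in any of them. The 14 calls were picked by p in the same data, so unchanged signs were likely beforehand and are no support for them. The counts at an unadjusted p under 0.05 did move. For genes higher in ICH than in sham, 7 as reported, eBayes without a trend gave 2 and a fit of only the 2 groups compared 16. Those were 2.35% and 18.8%, beside 7.21% and 8.25% of all genes. Equal medians gave 1, quantile normalization 11 and voom on recovered reads 3, or 1.18%, 12.9% and 3.53% beside 4.0%, 5.45% and 6.31%. For genes lower in ICH, 3 as reported, eBayes without a trend gave 1 and the fit of 2 groups 2. Those were 1.18% and 2.35%, beside 3.75% and 4.5% of all genes. Equal medians gave 9, quantile normalization 1 and voom 7, or 10.6%, 1.18% and 8.24% beside 7.07%, 6.17% and 6.61%. Centring on the mean of the 85 genes gave 7, or 8.24% beside 4.19%. In feb against ICH, quantile normalization gave 2 genes higher instead of 1, or 2.35% beside 5.4% of all genes. There eBayes without a trend gave 1 lower instead of 3 and centring 7, or 1.18% and 8.24% beside 5.66% and 3.23%. With ICH replicate 2 and feb replicate 2 both left out, 12 were higher and 7 lower in ICH against sham. Those were 14.1% and 8.24%, beside 6.07% and 3.25% of all genes. In feb against ICH 7 were higher and 0 lower with a median of 0.10, or 8.24% and 0% beside 4.31% and 4.87%. In feb against sham 21 were higher and 0 lower, or 24.7% and 0% beside 8.78% and 5.37%. Centring and leaving out both mice were chosen after seeing the data, and both used the levels of the 85 genes. Their shares are therefore not evenly comparable with those of all genes.

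Leaving out 1 mouse at a time gave 1 to 19 genes higher and 0 to 11 lower in ICH against sham. These were 1.18 to 22.4% and 0 to 12.9%, beside 4.06 to 11.9% and 2.42 to 6.61% of all genes. The medians ran from 0.02 to 0.13. The count of 1 came without ICH replicate 2, that of 19 without feb replicate 2 and that of 11 without sham replicate 2. In feb against ICH the ranges were 0 to 3 higher and 1 to 6 lower, with medians from -0.14 to 0.04. The counts were 0 to 3.53% and 1.18 to 7.06%, beside 3.26 to 5.53% and 4.14 to 6.8% of all genes. In feb against sham the ranges were 0 to 15 higher and 0 to 3 lower, with medians from -0.04 to 0.09. Here the counts were 0 to 17.6% and 0 to 3.53%, beside 2.44 to 8.91% and 1.51 to 5.24%. The cause of these shifts was not tested.

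Mice of different groups have only a replicate number in common, and the deviations of same-numbered mice correlated at -0.13 to 0.02, so the numbers were not taken to pair the mice. With the replicate number as a block, 3 genes were higher and 1 lower in ICH against sham, or 3.53% and 1.18% beside 5.99% and 3.55% of all genes. In feb against ICH 1 was higher and 1 lower, or 1.18% each beside 4.34% and 4.82%.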
